A study of Mus musculus with 24 samples.

Results

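The genes described here are 10 markers of radial glia and neural stem cells: Nes, Vim, Gfap, Fabp7, S100b, Slc1a3, Glul, Aqp4, Hopx and Egfr. They were chosen by symbol, and each matched 1 of the 23119 genes in the expression table. RNA was measured in a female mouse embryonic stem cell (mESC) line, JB4/EI7HZ2, derived from a cross between the JF1 and B6 strains, and in a SmcHD1 knockout (KO) line made from it by CRISPR in the ATPase domain. SmcHD1 is a chromatin protein of the SMC family that acts in X-chromosome inactivation. Both lines carry the drug resistance genes that select for cells with 2 X chromosomes. Each was sampled as mESCs in serum with 2i and LIF, as neuroectoderm after 7 or 9 days of differentiation, and as neural stem cells (NSCs) grown with FGF2 and EGF. There were 3 replicates for each of the 8 groups, 24 libraries in all, and since each genotype is a single line, genotype and line cannot be told apart.

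Radial glia are the dividing cells that line the embryonic neural tube, give rise to neurons and later to glia, and carry a long fibre to the brain surface. They are known by their intermediate filaments, by a brain fatty acid binding protein and by proteins that take up and convert glutamate, and they share many of these genes with astrocytes and with neural stem cells in culture. Gfap, Aqp4 and S100b are best known from mature astrocytes, and in mice radial glia have little Gfap. Cultured neural stem cells depend on EGF and FGF2, and Egfr encodes the receptor for EGF.

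The stretches before the start of 4 members are shown because these genes were at or near 0 in mESCs (Fabp7, S100b, Gfap) or gave the clearest difference between WT and KO (Slc1a3). Egfr was also low in mESCs, as given below, and its stretch is not shown. The stretches are the 250 bases before the transcription start in RefSeq on GRCm38.p6, written in the direction of the gene. Capitals mark letters matching TGGGAA (RBPJ, the DNA-binding partner of Notch), TTCNNNGAA (STAT) or TATAAA, a core promoter motif, on either strand. The positions are chr10:57784673-57784922 on the plus strand for Fabp7, chr10:76253586-76253835 on the plus strand for S100b, chr11:102897201-102897450 on the minus strand for Gfap and chr15:8710808-8711057 on the minus strand for Slc1a3.
Fabp7: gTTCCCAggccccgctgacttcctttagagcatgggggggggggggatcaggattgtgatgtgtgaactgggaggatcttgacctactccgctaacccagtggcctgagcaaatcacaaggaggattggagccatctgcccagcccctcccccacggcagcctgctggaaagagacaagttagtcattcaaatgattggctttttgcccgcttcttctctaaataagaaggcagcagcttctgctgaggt
S100b: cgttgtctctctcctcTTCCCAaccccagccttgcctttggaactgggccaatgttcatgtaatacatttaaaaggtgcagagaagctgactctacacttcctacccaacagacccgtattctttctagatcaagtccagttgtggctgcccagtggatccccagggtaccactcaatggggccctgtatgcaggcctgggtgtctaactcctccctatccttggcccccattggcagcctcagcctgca
Gfap: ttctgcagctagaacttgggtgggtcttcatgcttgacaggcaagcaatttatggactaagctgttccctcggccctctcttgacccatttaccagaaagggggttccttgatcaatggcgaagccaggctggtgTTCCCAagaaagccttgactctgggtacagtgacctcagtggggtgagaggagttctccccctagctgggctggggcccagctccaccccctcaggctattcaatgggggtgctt
Slc1a3: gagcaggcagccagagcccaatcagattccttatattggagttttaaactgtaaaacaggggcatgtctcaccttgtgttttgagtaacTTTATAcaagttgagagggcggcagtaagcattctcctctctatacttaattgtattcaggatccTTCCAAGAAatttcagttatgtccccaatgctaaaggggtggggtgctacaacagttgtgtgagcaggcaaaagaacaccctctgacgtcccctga
TGGGAA was present on the opposite strand, written TTCCCA, in Fabp7 (starting 249 bases before the start), S100b (234 bases) and Gfap (115 bases), and in 21.6% of all 32851 promoters in the table. No promoter of another member, Egfr among them, held it. TTCNNNGAA was present in Slc1a3, 96 bases before the start, and in 7.02% of all promoters. TATAAA was present in Slc1a3 on the opposite strand and in Vim on the same strand, 32 bases before the start, and in 12.4% of all promoters. The E-box CANNTG was found in 5 of the 10 promoters of 9 members, those of Glul, Fabp7, S100b, Slc1a3 and 1 of the 2 of Hopx, against 66.2% of all. ACAAAG and ACAATG, for SOX factors, ATGCAAAT, the octamer, and the NFI palindrome matched no promoter of a member, against 16.5%, 10.7%, 1.6% and 0.0365% of all. The windows also differed in CG pairs, counted after the other values were known. Slc1a3, Gfap and S100b held 2 each and Fabp7 held 4, while Vim held 8, Egfr 11, and Nes and Glul 15 each, and the 2 promoters of Hopx 8 and 18, with a median of 6 over all promoters. These matches describe letters in 1 window and no measurement of binding.

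The knockout was visible in the libraries. Smchd1 lay between 13 and 26.4 FPKM (fragments per kilobase, a level corrected for transcript length and for the fragments mapped in each library) in the 12 WT libraries and between 1.82 and 4.40 in the 12 KO libraries. Depth was similar, with relative read numbers between 0.811 and 1.15, and reads behind low values are counted from the steps in which a gene's FPKM rises by 1 read. The label of the NSCs was checked with 29 other radial glia and neural stem genes. Their summed level was 711 to 920 FPKM in WT mESCs and 1915 to 3081 in WT NSCs, while 6 markers of pluripotent cells summed to 6257 to 10078 in WT mESCs and 1.92 to 6.61 in WT NSCs. Neuron markers were low in NSCs (11.7 to 31.0 FPKM summed in WT and 14.0 to 16.7 in KO). Of 6 tested, limma called 0 between KO and WT NSCs, and 2 lower without WT NSC replicate 1. It called 1 lower without that library and KO NSC replicate 3, and 1 lower with same-numbered libraries as pairs. Markers of the oligodendrocyte lineage were high (1149 to 1298 in WT), nearly all of it from Olig1. In KO NSCs the oligodendrocyte markers summed to 1303 to 1524 FPKM. Of 6 tested, 3 were called lower by limma in KO than in WT NSCs and 0 higher (3.48% and 2.54% of all genes). They were Sox10, a transcription factor of the lineage (0.607 against 5.56 FPKM on average), Cspg4, for the proteoglycan NG2 (3.53 against 6.37), and Cnp, for a myelin enzyme (30.7 against 62.9). Sox10 and Cspg4 passed the filter on low values only through the NSC libraries, Sox10 only through those of WT. Without WT NSC replicate 1, 4 were called lower, and Cnp was not called without KO NSC replicate 3 (adjusted p = 0.136). The log2 difference of Cnp went from -0.85 to -1.29 without WT NSC replicate 1. That of Sox10 went from -1.70 to -2.59 without that library and KO NSC replicate 3. These genes thus moved with the differences between KO and WT NSCs given here, and their part in them was not tested.

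An NSC library stood apart. WT NSC replicate 1 was the lowest of the 6 NSC libraries for Slc1a3, Gfap, Aqp4, S100b, Glul and Egfr and the highest for Nes and Vim, so it was at an end for 8 of the 10 markers. Over all tested genes it lay below the other 5 in 25.0% and above them in 26.7%, more than any other NSC library. Its summed level of 17 astrocyte genes was 761 FPKM, against 2217 and 1932 in the other WT NSC libraries and 1904 to 3146 in KO. KO NSC replicate 3 was the highest of the 6 for Gfap, Aqp4 and S100b. The differences between KO and WT NSCs are therefore given also without WT replicate 1 or without both libraries where that changes a call, a direction or the size by over 1.5 times, and in bulk RNA fewer cells of a type and less RNA per cell cannot be told apart.

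**Figure D1:**
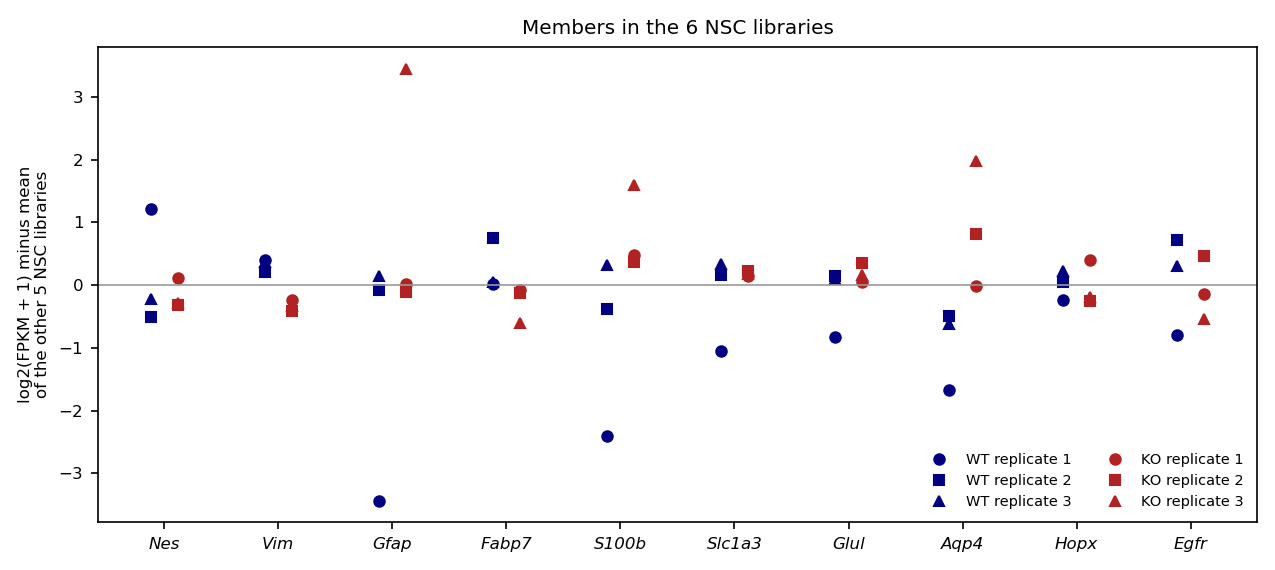
Each marker in the 6 NSC libraries, as its log2(FPKM + 1) minus the mean of the other 5 libraries (vertical axis, log2 units). WT replicate 1 (blue circles) is at -3.44 for Gfap and -2.41 for S100b, and KO replicate 3 (red triangles) is at 3.45 for Gfap and 1.97 for Aqp4.

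The 10 markers made up 0.0216% ± 0.00408 (SD, n = 3) of the summed FPKM in WT mESCs and 0.0579% ± 0.00314 by day 7. By day 9 they held 0.249% ± 0.0250, and in WT NSCs 1.07% ± 0.188. In KO the shares were 0.0242% ± 0.00293, 0.0444% ± 0.00568, 0.262% ± 0.0315 and 0.845% ± 0.0474. In WT NSCs the order of mean levels was Fabp7 (3862 FPKM), Vim (1384), Slc1a3 (297), Nes (159.7), Glul (151), Egfr (70.5), S100b (16.2), Gfap (5.10), Hopx (5.04) and Aqp4 (1.30). Neighbours from Slc1a3 to Glul, and from S100b to Hopx, overlapped between libraries. Fabp7 ranked 5th among all genes by its WT NSC mean and 8th by its KO NSC mean. Vim and Glul were already high in mESCs, whereas Aqp4 was at 0 in all 6 mESC libraries.

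**Figure D2:**
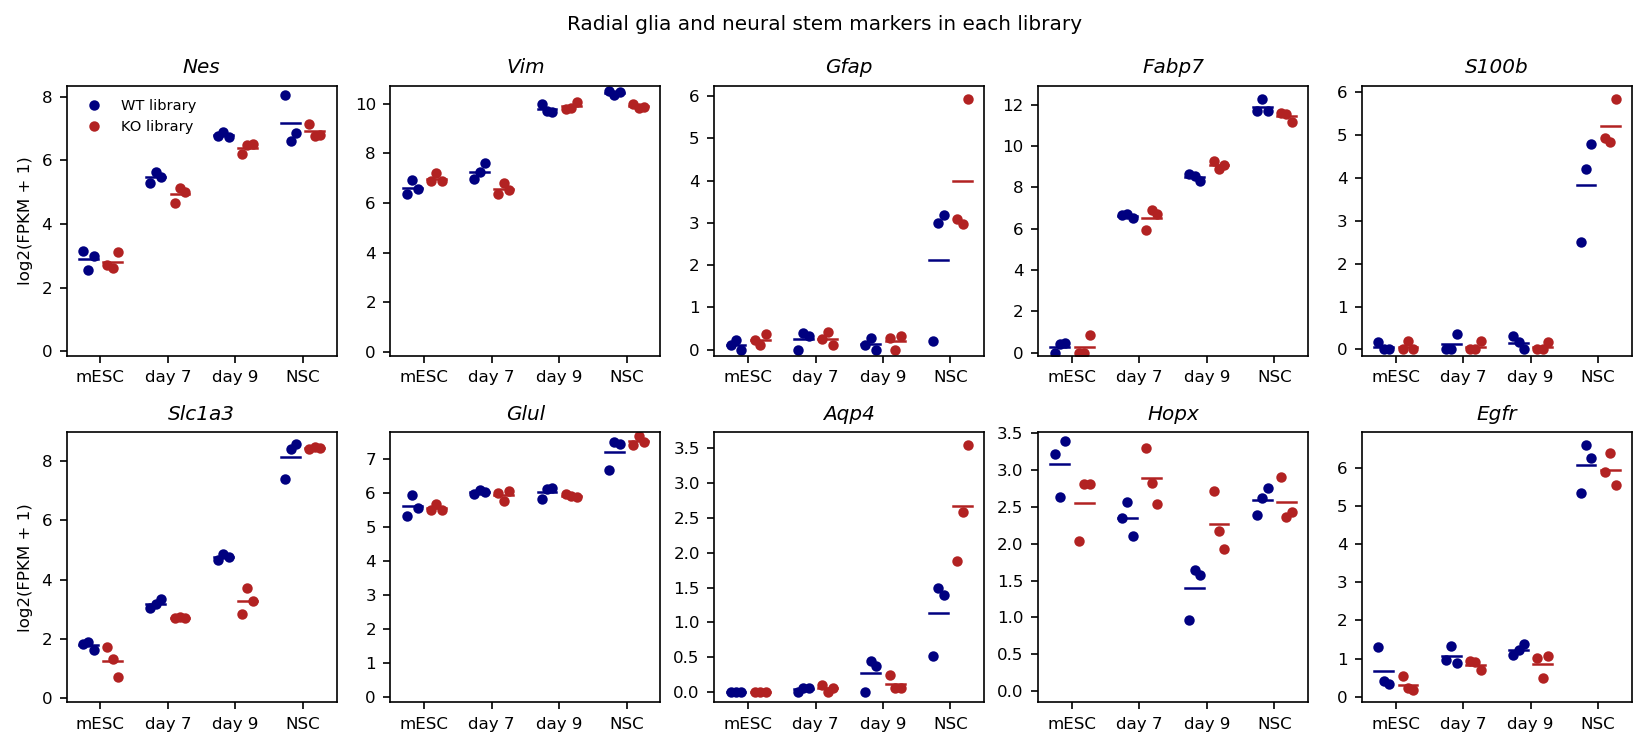
log2(FPKM + 1) of each marker in each library (points) and group mean (bars) in mESCs, day 7 cells, day 9 cells and NSCs, WT in blue and KO in red, with a vertical scale of its own for each marker. Fabp7 rises at every stage, whereas Gfap, S100b, Aqp4 and Egfr stay low until the NSC stage.

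Groups were compared on log2(FPKM + 1) with limma over 12105 genes, and a call is an adjusted p under 0.05. Aqp4, with a mean of 0.975 FPKM, fell just under the filter of 1 FPKM, so 9 markers were tested. Gfap, S100b and Egfr passed the filter only through the NSC libraries. Their rise into NSCs was thus partly fixed by the filter, and they are included in the counts and medians that follow. In WT, 5 markers were higher at day 7 than in mESCs (29.1% of all genes were called higher) and 1 was lower (30.2% lower). From day 7 to day 9, 4 were higher (18.5% of all genes) and 1 was lower (15.3%). From day 9 to NSCs, 8 were higher (24.8%), as were 8 in NSCs against mESCs (36.9%). In KO, 3 were higher at day 7 than in mESCs (29.5%) and 1 was lower (31.8%), 3 were higher at day 9 than at day 7 (17.2%), 6 were higher in NSCs than at day 9 (27.2%) and 8 were higher in NSCs than in mESCs (37.7%). The median log2 change from mESCs to NSCs was 3.83 over the markers tested and -0.01 over all genes in WT, and 4.10 and 0 in KO. With each library scaled to the same sum of FPKM, the median of all genes in that comparison moved to 0.36 in WT and 0.43 in KO, and the same number of markers were called. The background then became 49.6% higher and 25.3% lower in WT and 52.2% and 24.3% in KO. At day 7 against mESCs it became 36.3% and 18.4% in WT and 36.0% and 20.9% in KO, from day 7 to day 9 24.4% and 9.39% in WT and 18.1% and 10.2% in KO, and from day 9 to NSCs 27.3% and 26.8% in WT and 37.2% and 23.2% in KO.

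**Figure D3:**
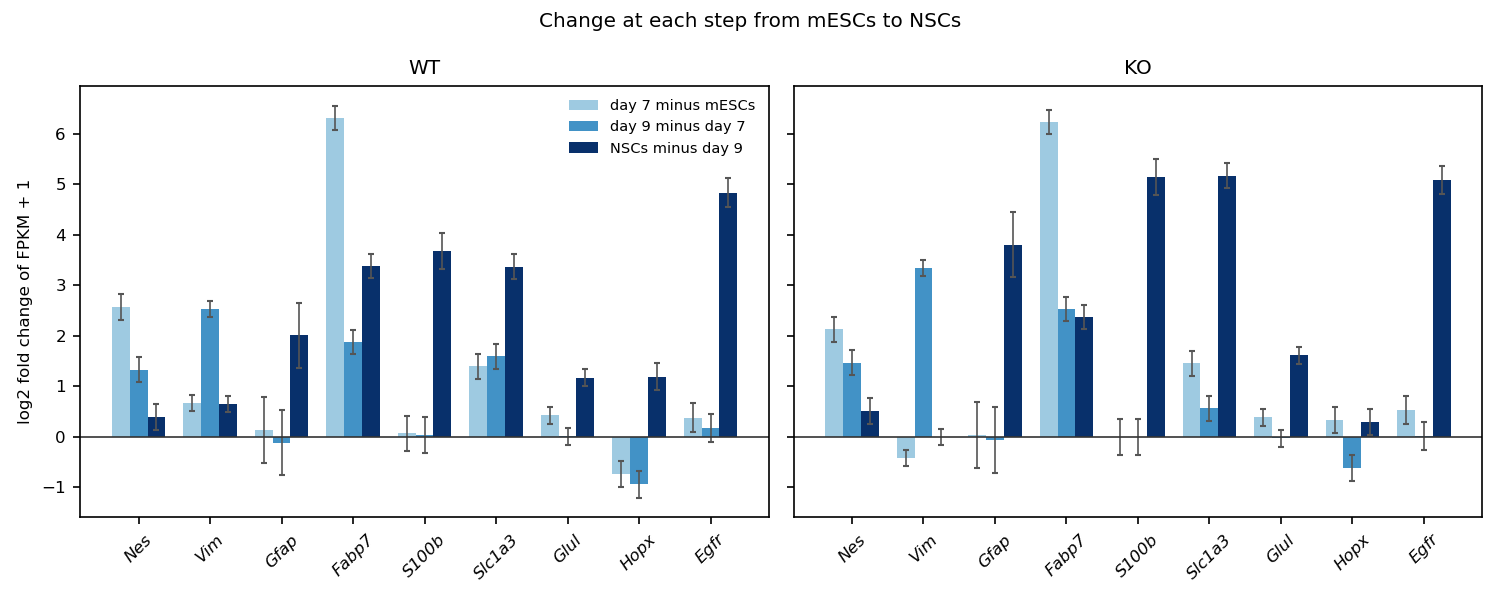
Fitted change of 9 markers at each step from mESCs to NSCs (log2 of FPKM + 1, bars with SE) in WT and KO. The step to day 7 is largest for Fabp7 and Nes, the step to day 9 for Vim, and the step to NSCs for Slc1a3, Egfr and S100b.

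Between KO and WT, no marker was called in mESCs by limma, where 2 had an unadjusted p under 0.05 and 0.529% of all genes were called. At day 7, Vim was lower in KO (2.5% of all genes were called lower). At day 9, Hopx was higher (2.58%) and Slc1a3 lower (4.11%). In NSCs, S100b was higher (2.54%) and Vim lower (3.48%). The median log2 difference over the markers tested lay between -0.10 and -0.02 at the 4 stages, and over all genes between -0.000524 and 0.00731. The difference between KO and WT was itself compared with that in mESCs, and 3 such contrasts were called: lower for Vim at day 7 (1.02% of all genes were called lower), higher for Hopx at day 9 (1.32% higher) and lower for Vim in NSCs (1.12% lower). These contrasts share the mESC libraries.

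**Figure D4:**
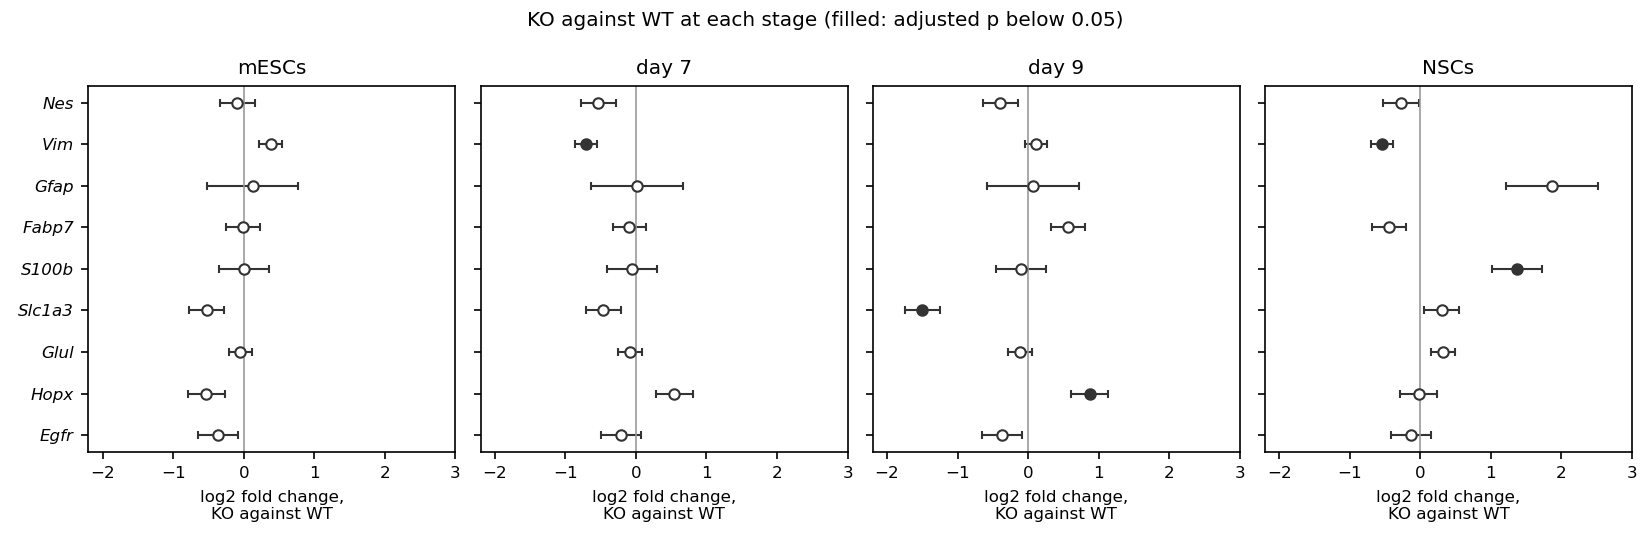
Fitted log2 fold change of KO against WT (horizontal axis, points with SE) for 9 markers at each stage, filled where the adjusted p is below 0.05. Slc1a3 at day 9 lies at -1.50, and the widest error is that of Gfap.

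Slc1a3 encodes GLAST, the sodium-dependent transporter by which radial glia and astrocytes take up glutamate (mm9, chr15:8584124-8660807). At day 9 the WT libraries held 24.4, 28.1 and 26.4 FPKM and the KO libraries 6.14, 12.1 and 8.59. Every KO library lay below every WT library. The log2 fold change was -1.50 ± 0.25 (SE, n = 3 per group, limma adjusted p = 0.000381), and it was called in every alternative run, including without each library in turn, with adjusted p from 0.000194 to 0.00512. In WT it was 2.54, 2.71 and 2.07 FPKM in mESCs and 7.22, 7.95 and 9.03 at day 7, and each step to NSCs passed the test. In KO it was 2.32, 1.49 and 0.647 in mESCs and 5.55, 5.66 and 5.44 at day 7, so the KO libraries were below the WT libraries at day 7 as well, though the difference of -0.46 ± 0.25 was not called (adjusted p = 0.445). The KO step from day 7 to day 9 was 0.56 ± 0.25 (adjusted p = 0.0931), against 1.59 ± 0.25 in WT (adjusted p = 4.23e-05). In NSCs the levels were 169, 342 and 379.5 FPKM in WT and 338, 357 and 346 in KO, and the groups overlapped (log2 difference 0.31, 95% interval -0.21 to 0.82), and without WT replicate 1 the difference was -0.06. From day 9 to NSCs the rise was 3.37 ± 0.25 in WT and 5.17 ± 0.25 in KO. The difference at day 9 was not shown to differ from that in mESCs (-0.98 ± 0.35, adjusted p = 0.193). Other markers moved at day 9 too, where 4.11% of all genes were called lower in KO. Neuron markers summed to 551 to 598 FPKM in WT and 285 to 398 in KO, with 3 of 6 tested lower in KO. Mesenchymal markers summed to 42.4 to 106 in WT and 26.7 to 46.3 in KO, with 4 of 7 lower. Their part in the result was not tested.

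Glul encodes glutamine synthetase, which turns glutamate and ammonia into glutamine (chr1:155747075-155756844). It was present throughout, at 39.1, 59.9 and 46.2 FPKM in WT mESCs and 44.2, 49.9 and 44.3 in KO mESCs. In NSCs it reached 101, 178 and 174 FPKM in WT and 169, 201 and 181 in KO, so the low WT library was replicate 1 again. The rise from mESCs to NSCs was 1.60 ± 0.17 in WT (adjusted p = 1.76e-08) and 1.97 ± 0.17 in KO (adjusted p = 5.59e-10). The day 7 and day 9 libraries together ranged from 53.2 to 70.2 FPKM. In WT the small rise from mESCs to day 7 of 0.43 ± 0.17 was called (adjusted p = 0.0336), but not in 5 of 6 fits that each left out 1 library of those groups. No difference between KO and WT was called at any stage, and in NSCs it was 0.32 with a 95% interval of -0.03 to 0.67, and 0.06 without WT replicate 1.

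Nes encodes nestin, the intermediate filament protein that gives neural stem cells their most used marker (chr3:87775015-87784373). It rose from 7.94, 4.84 and 6.91 FPKM in WT mESCs to 38.0, 48.6 and 43.5 at day 7 and 107, 117 and 106 at day 9. No library of 1 of these stages overlapped those of the next. The log2 steps were 2.57 ± 0.25 (adjusted p = 2.32e-08) and 1.33 ± 0.25 (adjusted p = 0.000384). In KO it went from 5.51, 5.06 and 7.68 FPKM in mESCs to 24.5, 33.7 and 31.2 at day 7 and 73.0, 88.5 and 90.0 at day 9. The KO libraries lay below the WT libraries on both days, but neither difference was called (-0.53 ± 0.25, adjusted p = 0.354 and -0.39 ± 0.25, adjusted p = 0.482). In NSCs it was 267, 97.5 and 115 FPKM in WT and 140.0, 109 and 111 in KO. WT replicate 1, low for the astrocyte genes, was here more than 2 times the other WT libraries, and the log2 difference between KO and WT went from -0.27 to 0.17 without it (adjusted p = 0.659 and 0.648). The change from day 9 to NSCs was not called in WT (0.39 ± 0.25, adjusted p = 0.202) and was -0.05 without that library. Nes was thus the only tested marker without a called rise at that step in WT.

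Vim encodes vimentin, an intermediate filament protein of many dividing and mesenchymal cells, radial glia among them (chr2:13495938-13504453). In WT it was 80.3, 119.6 and 93.2 FPKM in mESCs and 123, 151 and 193 at day 7. In KO it was 116, 145 and 118 FPKM in mESCs and 80.7, 110.1 and 91.0 at day 7. All WT libraries therefore lay higher at day 7 than in mESCs, and all KO libraries lower. Both changes were called (WT 0.66 ± 0.16, adjusted p = 0.00115; KO -0.43 ± 0.16, adjusted p = 0.0228), the KO one not without KO mESC replicate 2, KO day 7 replicate 1 or KO day 7 replicate 3, nor with libraries scaled to the same sum. Between the genotypes at day 7, KO was lower by a log2 fold change of -0.71 ± 0.16 (adjusted p = 0.00946). That call was lost without WT replicate 3 (adjusted p = 0.0894), without KO replicate 1 (adjusted p = 0.0727) and in a fit of those 2 groups alone (adjusted p = 0.0628). The contrast of this difference with that in mESCs was -1.09 ± 0.22 (adjusted p = 0.0102) and was called in every alternative that gave it. Mesenchymal markers summed to 38.3 to 61.2 FPKM in WT day 7 cells and 15.6 to 19.7 in KO, with 1 of 7 called lower (2.5% of all genes). Their part in the result was not tested.

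At day 9 vimentin was similar in both genotypes, at 1019.5, 839.5 and 808 FPKM in WT and 881, 917 and 1074 in KO, and the step from day 7 was its largest (2.53 ± 0.16 in WT and 3.34 ± 0.16 in KO). In NSCs it was 1448, 1287 and 1417 FPKM in WT and 1000.5, 901 and 940.5 in KO, with no overlap. The log2 difference was -0.55 ± 0.16 (limma adjusted p = 0.0415, and 0.0125 with same-numbered WT and KO libraries as pairs). The sizes without 1 NSC library each ran from -0.60 to -0.51, but the call was lost in 5 of these 6 fits, with adjusted p from 0.0489 to 0.133. Without WT replicate 1 and KO replicate 3 it was -0.51 (adjusted p = 0.133). The contrast with the difference in mESCs was -0.93 ± 0.22 (adjusted p = 0.0308), and was not called in 7 of 12 fits that each left out 1 mESC or NSC library (up to 0.0894).

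Gfap encodes the main intermediate filament protein of astrocytes (chr11:102748650-102758514). Outside NSCs it was at or below 0.331 FPKM in each library, which stood for no more than 4 reads. In NSCs it was 0.151, 7.05 and 8.11 FPKM in WT and 7.51, 6.87 and 60.6 in KO. WT replicate 1 held 2 reads, within the range of the mESC libraries, KO replicate 3 held about 851, and the other 4 libraries held about 90 to 115. The WT rise from mESCs to NSCs was called (adjusted p = 0.00862) but not without WT NSC replicate 2 or 3 (up to 0.0565), since replicate 1 then made up 1 of 2 libraries. The log2 difference between KO and WT of 1.87 ± 0.65 was not called (adjusted p = 0.104). With same-numbered WT and KO libraries as pairs it was called (adjusted p = 0.0165) and 0.0165 to 0.921 was the range of adjusted p over all alternatives. Without WT replicate 1 and KO replicate 3 the sign turned, to -0.07 (adjusted p = 0.921).

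Aqp4 encodes aquaporin-4, the water channel of astrocyte endfeet, and lies on chromosome 18. It was at 0 in all 6 mESC libraries and at no more than 2 reads in any day 7 library. At day 9 the WT libraries held 0, 0.359 and 0.293 FPKM and the KO libraries 0.184, 0.0360 and 0.0398. In NSCs it was 0.428, 1.83 and 1.63 FPKM in WT, from 11, 50 and 45 reads, and 2.70, 4.99 and 10.7 in KO, from 63, 130 and 292 reads. Every KO library lay above every WT library. Set against a floor of 3 reads per mESC library, the NSC mean was at least 10.4-fold higher in WT and at least 45.5-fold higher in KO. Leaving out 1 NSC library moved this bound to between 8.24 (without replicate 2) and 13.9 (without replicate 1) in WT. In KO it moved to between 28.5 (without replicate 3) and 58.3 (without replicate 1). In a fit without the filter the difference between KO and WT NSCs was 1.54 ± 0.27 on the log2 scale (adjusted p = 0.00157). It stayed called without each NSC library in turn (adjusted p from 5.16e-05 to 0.00599). Without both WT replicate 1 and KO replicate 3 it was 0.79 ± 0.16 (adjusted p = 0.00463). With same-numbered WT and KO libraries as pairs the limma adjusted p was 0.000392. These fits were chosen after its values were seen.

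S100b encodes a calcium-binding protein of astrocytes (chr10:75716581-75724064). No library outside NSCs held more than 2 reads. In NSCs it was 4.69, 17.4 and 26.5 FPKM in WT and 29.3, 27.3 and 56.5 in KO. The lowest KO library lay just above the highest WT library. The log2 difference was 1.37 ± 0.35 (limma adjusted p = 0.0226, and 0.0044 with same-numbered WT and KO libraries as pairs). Much of it rested on the ends of the groups: it was 0.70 without WT replicate 1 (adjusted p = 0.0567), 1.04 without KO replicate 3 (adjusted p = 0.164) and 0.38 without both (adjusted p = 0.268). With a pseudocount of 0.1 in place of 1 it was 1.45 and not called (adjusted p = 0.260). Its contrast with the difference in mESCs was not called (1.36 ± 0.50, adjusted p = 0.192); it was with same-numbered libraries as pairs (adjusted p = 0.0488) and without WT NSC replicate 3 (0.0381), in a range up to 0.551. The 17 astrocyte genes, whose sums are given above, moved with these libraries, and their part was not tested.

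Fabp7 encodes the brain fatty acid binding protein, also called BLBP, of radial glia (chr10:57504729-57508256). It went from between 0 and 2 reads in each mESC library to 101, 102 and 90.2 FPKM at day 7 in WT and 61.3, 120.0 and 104 in KO. At day 9 it held 397, 373 and 319 FPKM in WT and 610.1, 468 and 536 in KO, and all KO libraries lay above the WT libraries. That difference of 0.56 ± 0.24 was not called (adjusted p = 0.209), apart from a fit of those 2 groups alone (adjusted p = 0.0165). In NSCs it was 3264, 4998 and 3325 FPKM in WT and 3089, 3025 and 2286 in KO. Here the KO libraries lay below the WT libraries, by -0.45 ± 0.24 (adjusted p = 0.349), and by -0.42 without WT replicate 1 and KO replicate 3. All 3 steps were called in both genotypes, and the last was 3.38 ± 0.24 in WT and 2.37 ± 0.24 in KO.

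Hopx encodes a small homeodomain protein without DNA binding, used as a marker of outer radial glia and of quiescent stem cells (chr5:77516011-77544148). It was the marker whose course differed most from the rest. In WT it went from 8.29, 5.22 and 9.43 FPKM in mESCs to 4.08, 4.94 and 3.32 by day 7. By day 9 it was 0.949, 2.14 and 1.98, and the NSCs held 4.21, 5.14 and 5.76. It thus fell at both steps to day 9 (-0.74 ± 0.26, adjusted p = 0.0200 and -0.95 ± 0.26, adjusted p = 0.00811) and rose from there to NSCs (1.19 ± 0.26, adjusted p = 0.000579). The fall to day 7 was not called without WT mESC replicate 1, WT mESC replicate 3 or WT day 7 replicate 3, or with scaled libraries, and that to day 9 not without WT day 9 replicate 1. In KO it was 3.11, 5.99 and 6.0 FPKM in mESCs and 8.81, 6.06 and 4.83 by day 7. By day 9 it was 5.57, 3.50 and 2.80, the NSCs held 6.49, 4.15 and 4.36, and no step was called. At day 9 the KO libraries lay above the WT libraries by 0.87 ± 0.26 (adjusted p = 0.0476). This was lost in 5 of 6 fits without 1 library of those groups, where adjusted p ran from 0.0382 to 0.290. Its contrast with mESCs, where the KO libraries were on average lower (-0.53 ± 0.26, adjusted p = 0.679), was 1.40 ± 0.37 (adjusted p = 0.0437). That contrast was not called with same-numbered libraries as pairs (adjusted p = 0.0888), a pseudocount of 0.1 (0.0561) or scaled libraries (0.0547), nor in 10 of 12 fits that each left out 1 library (up to 0.161).

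Egfr encodes the EGF receptor (chr11:16652206-16813910). It was 1.48, 0.320 and 0.260 FPKM in WT mESCs, from 0.853 to 1.51 at day 7 and from 1.13 to 1.61 at day 9. In KO it was 0.455, 0.178 and 0.123 FPKM in mESCs, from 0.610 to 0.920 at day 7 and from 0.396 to 1.11 at day 9. In NSCs, which grow in EGF, it was 39.7, 95.9 and 75.8 FPKM in WT and 58.0, 82.9 and 45.9 in KO. The rise from day 9 was 4.84 ± 0.28 in WT (adjusted p = 3.47e-12) and 5.08 ± 0.28 in KO (adjusted p = 1.31e-12). The groups overlapped in NSCs, and the log2 difference was -0.13 with a 95% interval of -0.72 to 0.46. It was -0.49 without WT replicate 1 (adjusted p = 0.282), 0.07 without KO replicate 3 and -0.30 without both.

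The genes around these markers were described by lists. Of 28 tested of the 29 other radial glia and neural stem genes, 24 were higher and 2 lower in WT NSCs than in WT mESCs (36.9% and 38.3% of all genes were called higher and lower), with a median log2 change of 3.72, and 25 were higher and 1 lower in KO (37.7% and 38.2%). Of the 28, 5 had a mean under 1 FPKM outside NSCs and so passed the filter only through the NSC libraries, Tnc among them. The largest were Tnc, for the matrix protein tenascin-C, from 0.0103 ± 0.0178 to 219 ± 32.5 FPKM (SD, n = 3), and Ptn, for the growth factor pleiotrophin, from 1.24 ± 0.452 to 472 ± 89.0. Between KO and WT NSCs, 2 of the 28 were higher and 4 lower (2.54% and 3.48% of all genes). With same-numbered libraries as pairs, 1 was higher and 4 lower (4.29% and 5.17% of all genes). The counts were 2 and 5 without WT replicate 1, and 1 and 5 without both libraries that stood apart. Prom1, for prominin-1, a membrane protein of neural stem cells, was lower in KO (5.47 ± 0.548 against 16.2 ± 1.84 FPKM, adjusted p = 1.52e-05). Id4, for an inhibitor of bHLH factors, was higher (6.30 ± 1.29 against 2.50 ± 2.50, adjusted p = 0.0218), with overlapping libraries, and not called with the pairs (adjusted p = 0.0575), without WT replicate 1 (0.0783) or without KO replicate 3 (0.0631).

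Of 14 tested of the 17 astrocyte genes, 11 were higher and 1 lower in WT NSCs than in mESCs (36.9% and 38.3% of all genes), and 12 were higher and 0 lower in KO (37.7% and 38.2%). The lists after this one are read against the same shares. Mlc1, Agt and Kcnj10, 3 of the 14, passed the filter only through the NSC libraries. Sparcl1, for a secreted matrix protein, was at 266 ± 105 FPKM and Mlc1, for an astrocyte membrane protein, at 96.7 ± 43.7 in WT NSCs, against 0.459 ± 0.154 and 0.0321 ± 0.0556 in mESCs. Between KO and WT NSCs limma called 0 of the 14 (2.54% of all genes higher and 3.48% lower). Of them, 5 had an unadjusted p under 0.05 (1 without WT replicate 1 and 1 without both libraries). The median log2 difference of the 14 was 0.65 beside 0.01 for all genes, and 4 were called higher with same-numbered libraries as pairs (4.29% of all genes). The largest differences were those of Apoe, for apolipoprotein E (504 ± 306 against 281 ± 215 FPKM, adjusted p = 0.290), and Kcnj10, for the potassium channel Kir4.1 (32.2 ± 14.5 against 15.0 ± 9.15, adjusted p = 0.0510). With the pairs Kcnj10 was called (adjusted p = 0.0423) and Apoe was not (0.0943). Without WT replicate 1 and KO replicate 3 the log2 difference of Apoe went from 1.30 to -0.31 and that of Kcnj10 was then 0.23.

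Of 12 tested of 13 other intermediate filament genes, 1 was higher and 9 lower in WT NSCs than in mESCs, and 7 of the 12 had a mean under 1 FPKM in NSCs, so that they passed the filter only through the other stages. Lmna, for lamins A and C of the nuclear envelope, was the one higher (9.13 to 15.4 FPKM on average). Among those lower were Nefl, for the light neurofilament chain (53.8 ± 24.5 to 0.549 ± 0.439 FPKM), and Krt18, for a keratin of simple epithelia (8.25 ± 2.01 to 0.0491 ± 0.0851). In KO 1 was higher and 10 lower. At day 9, 5 of the 12 were lower in KO than in WT and 0 higher (4.11% and 2.58% of all genes). In NSCs limma called 0 of the 12 (2.54% of all genes higher and 3.48% lower), and 1 had an unadjusted p under 0.05. It was Nefm, for the medium neurofilament chain, with a log2 difference of 0.69 (adjusted p = 0.194). Nefm was called higher in KO with the pairs (adjusted p = 0.0485) and without WT replicate 1 (1.02, adjusted p = 0.0218). It was not called without KO replicate 3 (0.70, adjusted p = 0.351) or without both libraries (1.03, adjusted p = 0.0519). Prph, for peripherin, a filament protein of peripheral neurons, was below 1 FPKM in every NSC library (log2 difference -0.26, adjusted p = 0.701).

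Of 9 tested of 11 other genes for glutamate and glutamine handling, 5 were higher and 2 lower in WT NSCs than in mESCs, as in KO. Slc38a3, for a glutamine transporter, was called higher in KO NSCs (165 ± 26.7 against 77.1 ± 21.3 FPKM, adjusted p = 0.00353), but not without both libraries (adjusted p = 0.0598). Slc1a2, for the astrocyte glutamate transporter GLT-1, was at 19.5 ± 8.78 in KO NSCs and 12.4 ± 9.66 in WT (adjusted p = 0.270), called with the pairs (0.0470), and the log2 difference of 0.95 went to -0.25 without both. Between KO and WT NSCs, 1 of the 9 was higher and 2 lower (2.54% and 3.48% of all genes). With the pairs, 2 were higher and 2 lower (4.29% and 5.17% of all genes). The counts were 1 and 4 without WT NSC replicate 1, and 0 and 2 without both libraries. Of 6 tested of 11 other genes for EGF receptors and their ligands, 3 were higher and 1 lower in WT NSCs than in mESCs, with Erbb4 and Tgfa over the filter only through the NSC libraries. Erbb3, for the neuregulin receptor that lacks kinase activity, fell from 8.83 ± 3.26 to 0.112 ± 0.0564 FPKM, and Erbb4, for another neuregulin receptor, rose from 0.0158 ± 0.0273 to 3.61 ± 2.73. Erbb2, the shared partner of these receptors, was the only one called between KO and WT NSCs in the reported fit (6.80 ± 0.433 against 10.5 ± 0.573 FPKM, adjusted p = 0.00267). In that fit 3.48% of all genes were called lower, and without both libraries 2 of the 6 were. Nrg1, for the ligand neuregulin-1, was at 0.546 ± 0.202 FPKM in KO NSCs and 0.828 ± 0.328 in WT (adjusted p = 0.769). Its log2 difference of -0.23 went to -0.12 without both libraries. Of 9 tested of 10 other fatty acid binding and S100 genes, 3 were higher and 4 lower in WT NSCs than in mESCs, with S100a4 over the filter only through the NSC libraries. Fabp3, for the heart fatty acid binding protein, went from 587 ± 285 to 4.00 ± 2.41 FPKM, against the course of Fabp7. S100a10, for the partner of annexin A2, was lower in KO NSCs (60.7 ± 8.02 against 169 ± 77.3 FPKM, adjusted p = 0.000214). S100a4, for another S100 protein, was at 15.8 ± 13.9 FPKM in KO NSCs and 4.07 ± 1.19 in WT (log2 difference 1.27, adjusted p = 0.102). It was called higher with the pairs (adjusted p = 0.0322), and the log2 difference was 0.58 without KO replicate 3 and 0.56 without both libraries.

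The markers themselves differed in how alike their courses were. Over the 24 libraries, which share 4 stages and so are not independent, the highest Pearson correlations of log2(FPKM + 1) between markers were 0.965 for Nes with Fabp7 and 0.961 for Gfap with Aqp4, and the lowest was -0.48 for Vim with Hopx. Among all tested genes, those most like a marker were 9530068E07Rik (r = 0.983) and Phlda1 for Nes and Lrrc4b (0.993) and Cdk14 for Fabp7. They were Sdc3 (0.986) and Abat for Slc1a3, Serpina3n (0.989) and Tnr for Gfap, and Anks1b (0.994) and Plcd4 for S100b. They were Sfxn5 (0.975) and Mtss1l for Glul and Pik3r1 (0.992) and Eln for Egfr. Hopx had no close match, with Bckdhb (0.767) and Tnfrsf19 the nearest. Sdc3, the nearest to Slc1a3, had group means of 25.6 FPKM in WT and 13.2 in KO at day 9, and Serpina3n, the nearest to Gfap, 2.02 in WT and 6.84 in KO NSCs.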

How the data were processed

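Poly(A) RNA was sequenced by the authors from stranded libraries. Per the labels and the paper's methods, reads were trimmed with Trim Galore 0.6.6, aligned to mm9 with TopHat2 2.1.1 and quantified with Cufflinks and Cuffdiff, and reads from ribosomal RNA and the X chromosome were left out. The authors deposited FPKM for each gene in each library; the normalization across libraries and counting by strand are not given in the sources used here. The table holds 36 FPKM columns, and 12 that belong to no sample used here were left out.

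Groups followed the labels. Genes outside X and Y, without a failed estimate (1 gene had one) and with a mean of at least 1 FPKM over 24 libraries were tested, 12105 in all. limma 3.58.1 (R 4.3.3) fitted all 8 groups to log2(FPKM + 1) with trended, robust eBayes, two-sided, with Benjamini-Hochberg adjustment over all tested genes; fold changes are on that scale and understate changes of low genes. It was tested on simulated data with independent errors, which held no pairs of libraries and no library that stood apart. An exact permutation test of 3 against 3 cannot go below p = 0.1 and was not used. Read totals are unknown; summed FPKM ran from 504660 to 802938.

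The members, gene lists, motifs and rules for named genes were chosen with earlier results of these data known. Named genes were all members, in each list the 2 genes with the largest change in WT NSCs against mESCs and in KO against WT NSCs, and the 2 most correlated with each member, which for Vim are not reported here. Lmna, the oligodendrocyte genes and the other genes said to pass the filter through NSCs only were named after their values were seen. The study describes the replicates as biologically independent. Same-numbered WT and KO libraries deviated together in mESCs (correlations 0.289, 0.435 and 0.141) and NSCs (0.335, 0.184 and 0.240), so their numbers were taken to pair them there. At days 7 and 9, and between stages, they were not. Promoters came from RefSeq (GRCm38.p6), with an entry for 9 of the 10 members.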

Additional observations from a re-analysis of the deposited data

Results flagged for a closer look

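The difference between KO and WT changed with the stage for a pair of markers, by a test of the interaction. For Vim, the KO effect at day 7 minus that in mESCs was -1.09 ± 0.22 (SE) on the log2 scale (limma adjusted p = 0.0102). In KO it was lower than in WT in all 3 day 7 libraries and on average higher in mESCs. For Vim in NSCs the same contrast was -0.93 ± 0.22 (adjusted p = 0.0308), from 0.00922 to 0.0894 over the alternatives. For Hopx at day 9 it was 1.40 ± 0.37 (adjusted p = 0.0437), from 0.0183 to 0.161 over the alternatives.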

How the results depend on the processing

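The number of markers called between KO and WT, counted over the 9 that passed the filter, depended on the settings. In NSCs, where 2 were called, 1 was called with a pseudocount of 0.1, without the filter on low values, with libraries scaled to the same sum of FPKM or with eBayes without trend and robust settings, and 0 in a fit of those 2 groups alone or without WT NSC replicate 1 and KO NSC replicate 3, a setting chosen after seeing the data. Aqp4, tested only without the filter, was called there as well and is not in these counts. In NSCs the fit of 2 groups called 0.248% of all genes higher and 0.231% lower, against 2.54% and 3.48% in the reported fit. The settings with 1 marker called in NSCs called 2.23% to 2.94% of all genes higher and 2.46% to 3.52% lower. At day 9, also with 2, the number of markers called was 1 without the filter, with scaled libraries, without trend and robust settings or with the replicate block. At day 7, with 1, it was 0 in the fit of 2 groups, which called 2.36% of all genes lower, against 2.5% in the reported fit. The day 9 contrast with mESCs, with 1, had 0 calls with the pseudocount of 0.1, with scaled libraries or with the replicate block. The NSC contrast, with 1, had 2 with the replicate block and 0 without both NSC libraries. For it the block called 2.2% of all genes higher and 1.97% lower, against 1.14% and 1.12% in the reported fit. The cause was not tested. The block changed no other count by over 1.5 times; the correlations of same-numbered libraries, all below 0.1 at days 7 and 9, did not pair them there.

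Leaving out 1 library at a time gave 0 to 2 calls in NSCs, 0 to 1 at day 7, 1 to 2 at day 9, 3 to 5 for KO day 9 against KO day 7, and 0 to 1 for the day 9 and the NSC contrasts with mESCs. Of 135 marker comparisons, 68 were called in the reported fit or in an alternative. Their alternatives kept direction and side of the threshold 783 times, lost the call 68 times, gained it 20 times and turned direction 3 times. Those were Gfap in KO against WT NSCs without both NSC libraries (-0.066, and 0.90 to 2.40 without 1 library each) and Nes in WT NSCs against day 9, without WT NSC replicate 1 alone or both (-0.054 in each, and up to 0.67 without 1 library each). Of the 67 comparisons called in no setting, 35 changed sign in at least 1. With scaled libraries, 22.7% of all genes called between KO and WT at day 9 were higher in KO, against 38.6%, and 54.4% in NSCs, against 42.2%.

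Over all genes, calls moved by over 1.5 times in a few settings. For KO against WT in mESCs, 64 were called, against 164 without the filter, 42 with scaled libraries, 1 in the fit of 2 groups and 98 with the block. At day 9, 809 became 1221 without the filter and 1377 with 2 groups. In NSCs, 729 became 58 with 2 groups and 1145 with the block. The contrasts with mESCs went from 203 to 330 at day 7 with the block, from 324 to 165 with the pseudocount of 0.1 and 537 without the filter at day 9, and from 274 to 504 in NSCs with the block. A single read limited Gfap, S100b, Aqp4 and Fabp7 in mESCs, so folds against them depend on the pseudocount.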
